A study of Mus musculus with 4 samples.

Results

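The chemokine receptors Cxcr3, Cxcr6, Cxcr4, Cxcr5, Ccr2, Ccr7, Ccr9 and Cx3cr1 were taken by gene symbol from a table of 55401 genes, and all 8 were found. Of these, 7 passed the filter on low counts and were among the 11676 genes tested, and Cxcr5 did not pass. The RNA was from spleen CD8+ T cells of the mouse P14 line, whose transgenic T cell receptor recognises lymphocytic choriomeningitis virus (LCMV), sorted after Armstrong strain infection. The Hic1 vector group carried the pMIA vector with Hic1, a zinc finger transcriptional repressor, and the empty vector group carried pMIA without an insert (2 libraries each). Cells of both groups had the same T cell receptor, the same infection and a vector. The time after infection was day 32 by the sample labels but day 7 by the text of the series. The age, sex and number of the mice are not in the labels, nor is it said whether the replicates came from separate animals. Sex-linked transcripts, given below, differed between the 2 replicates of each group, so these were not repeats of the same cells. P-values here cover only the spread of these samples, which may be technical in part.

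Chemokine receptors are G protein-coupled receptors that sense gradients of chemokines and steer migrating cells. Cxcr3 binds the interferon-induced ligands Cxcl9 and Cxcl10, Cxcr6 binds Cxcl16, Ccr2 binds Ccl2 and related monocyte chemoattractants, and Cx3cr1 binds the membrane-tethered chemokine Cx3cl1. Ccr9 binds Ccl25 and guides T cells to the small intestine. Ccr7, Cxcr4 and Cxcr5 direct lymphocytes within lymphoid organs, where Ccr7 leads to T cell zones and Cxcr5 to B cell follicles. In mouse CD8 T cells Cx3cr1 marks effector-differentiated cells, and Cxcr3 and Cxcr6 are found on memory and tissue-resident cells.

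Total gene counts were 7501285 and 8839317 in the Hic1 vector libraries, against 4017346 and 3941364 in the empty vector libraries, and depth was thus confounded with the group. Hic1 had 314 and 161 counts in the Hic1 vector libraries, against 3 and 5 in the empty vector libraries. Its log2 fold change was 4.58 ± 0.538 (SE, n = 2 per group) and its adjusted p was 0.00706. Without empty vector replicate 1 the log2 value was 4.34 and the adjusted p was 0.108. Xist, from the inactive X chromosome, had 3590 and 3 counts in Hic1 vector libraries, against 1885 and 0 in empty vector libraries. Y-linked Eif2s3y had 0 and 951 counts in Hic1 vector libraries, against 0 and 396 in empty vector libraries. Sex-linked transcripts thus moved with the replicate number and not with the vector, and the difference within each number is given below. The spread within each group therefore includes any difference of sex between its 2 libraries. Cd3e, Cd3d, Cd8a, Cd8b1 and Trac summed to 4680 and 5361 CPM (counts scaled to library size) in Hic1 vector libraries, against 4390 and 4540 CPM in empty vector libraries, and none of the 5 passed the test. A gene is said to have risen or fallen where edgeR's quasi-likelihood test gave a Benjamini-Hochberg adjusted p below 0.05 over all genes tested.

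Cxcr3 and Cxcr6 rose with the Hic1 vector, and none of the other 5 receptors tested passed. Both were also called when the counts of every library were thinned to the depth of the smallest. Over all genes tested, 1.82% were called, 84 higher (0.719%) and 129 lower (1.1%). With library totals alone as the scaling the split was 70 higher and 251 lower, and after removal of a GC trend it was 30 higher and 72 lower. The median log2 fold change of the 7 receptors was 0.61, with 4 above 0 and 3 below, against 0.01 over all genes. This median was the value of Ccr7, a scarce receptor whose groups overlapped (0.61 ± 0.66). The groups did not overlap in 3 of the 7 with the Hic1 vector higher (Cxcr3, Cxcr6 and Ccr9) and in 1 with it lower (Cxcr4). Among all genes such separation was found in 26.5% for higher, 24.9% for lower and 51.4% for either direction.

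**Figure D1:**
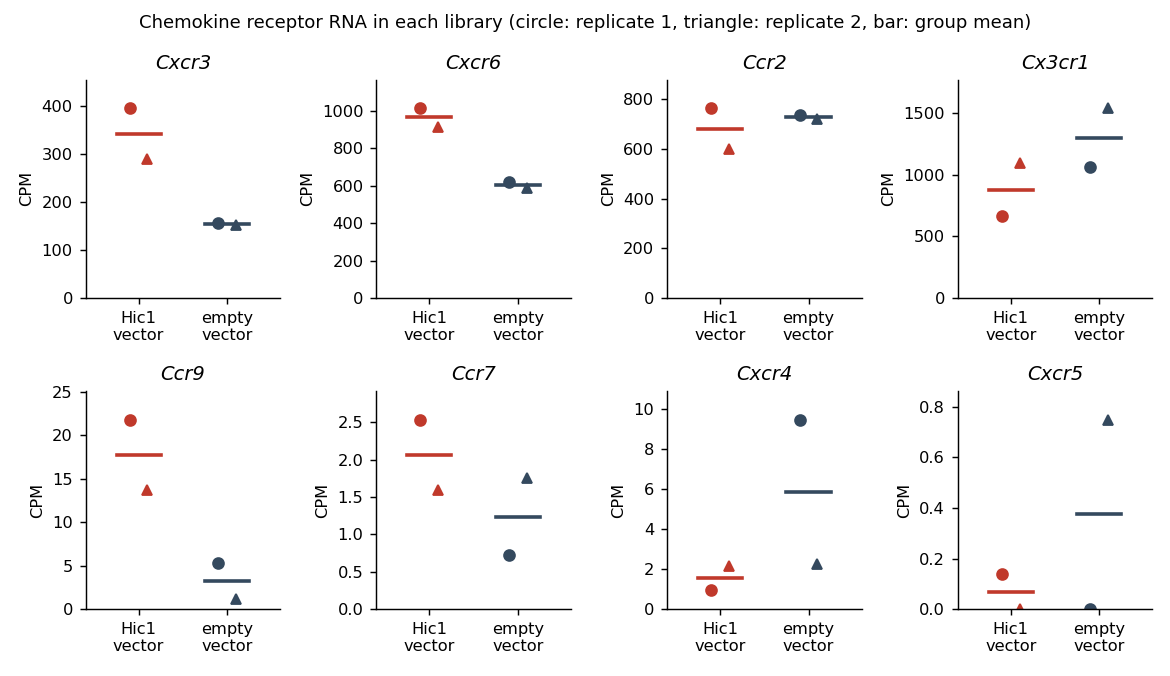
CPM of the 8 receptors in each library, with a linear axis from 0 in every panel, red for the Hic1 vector and dark blue for the empty vector; circles are replicate 1, triangles replicate 2 and bars the group mean. The Hic1 vector libraries lie above the empty vector libraries for Cxcr3 (395.3 and 289.5 against 156.3 and 153.2 CPM), Cxcr6 and Ccr9, and the groups overlap for Ccr2, Cx3cr1 and Ccr7.

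Cxcr3, the receptor for interferon-induced chemokines, rose 2.21-fold. It was at 395.3 and 289.5 CPM in Hic1 vector libraries, from 2808 and 2541 counts, against 156.3 and 153.2 CPM in the empty vector libraries, from 644 and 613 counts. Both Hic1 vector libraries were above both empty vector libraries. The log2 fold change was 1.14 ± 0.166 (SE, n = 2 per group; adjusted p = 0.0122 by edgeR's quasi-likelihood test). The gene lies on the X chromosome (positions 101731535 to 101734269, minus strand, mm10), and an effect of sex on it was not tested. The empty vector libraries, one with Xist and the other with Y-linked transcripts, were nearly level. Of the Hic1 vector libraries, the one with Xist was the higher (395.3 against 289.5 CPM). The log2 difference was 1.34 between the libraries numbered 1, with Xist present, and 0.92 between those numbered 2, with Y-linked genes present. Without empty vector replicate 1 the log2 value was 1.16 and the adjusted p was 0.092, so the call was lost and the size was not.

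Cxcr6, a receptor of resident and effector T cells, rose 1.6-fold and had the highest mean per length of the 8 receptors in both groups, although Cx3cr1 was above it in empty vector replicate 2 (341.6 against 303.0 CPM per kb). It was at 1014 and 914.7 CPM in Hic1 vector libraries, against 621.2 and 585.1 CPM in the empty vector libraries. The 2 groups were separated by a wider gap than the spread within either. The log2 fold change was 0.68 ± 0.122 (SE, n = 2 per group; adjusted p = 0.0242 by edgeR's quasi-likelihood test). It was 0.71 within replicate number 1 and 0.64 within number 2. The adjusted p was 0.143 without empty vector replicate 1 and 0.0671 without empty vector replicate 2, with log2 values of 0.72 and 0.62. Cxcr6 (chromosome 9, positions 123806475 to 123811760, plus strand) lies within the span of Fyco1 on the opposite strand, and the exons of the 2 genes share no bases.

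Sequences upstream of a transcript start of Cxcr3, Cxcr6 and Ccr9 are printed because these are the receptors in which both Hic1 vector libraries were higher. Each is the part of the RefSeq promoter window (GRCm38.p6) before the most upstream transcript start annotated within it, 5′ to 3′ on the gene's strand. The capital marks the base next to that start. The Ccr9 stretch lies inside the annotated span of the gene, which begins at position 123678439 with a longer transcript.
Cxcr3, chrX:101734270-101734397, minus strand: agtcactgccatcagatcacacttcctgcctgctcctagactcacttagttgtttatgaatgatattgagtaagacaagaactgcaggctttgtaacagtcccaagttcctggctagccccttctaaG
Cxcr6, chr9:123806227-123806474, plus strand: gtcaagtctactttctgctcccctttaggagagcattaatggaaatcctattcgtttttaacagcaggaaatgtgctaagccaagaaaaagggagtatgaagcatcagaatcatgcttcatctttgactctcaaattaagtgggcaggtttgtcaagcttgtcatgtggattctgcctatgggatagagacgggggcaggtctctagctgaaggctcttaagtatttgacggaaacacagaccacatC
Ccr9, chr9:123766961-123767168, plus strand: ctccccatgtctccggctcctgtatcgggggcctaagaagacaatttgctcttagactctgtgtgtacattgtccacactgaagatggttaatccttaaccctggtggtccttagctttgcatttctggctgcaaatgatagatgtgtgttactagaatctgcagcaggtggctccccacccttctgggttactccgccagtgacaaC

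Windows of 300 bases around the RefSeq start were available for 6 of the 8 receptors, namely these 3, Ccr2, Cxcr4 and Cx3cr1. They were searched on both strands for GGGCANCC, a core of the sequence that HIC1 protein binds, and for GGTGTGA, a core of the T-box sequence. None of the 6 windows held either. Of all 32851 promoter windows, 5.46% held GGGCANCC and 3.98% held GGTGTGA. The letters are absent from these windows, which says nothing on binding elsewhere.

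Ranked by CPM per kilobase of exon, the receptors fell into 4 abundant and 4 scarce genes in every library, and the Hic1 vector libraries differed from the empty vector libraries in the order of the abundant genes. In the Hic1 vector group the order was Cxcr6 at 499.3 ± 36.3, Cxcr3 at 197.8 ± 43.2, Cx3cr1 at 194.7 ± 67.0 and Ccr2 at 100.7 ± 17.2 CPM per kb (SD, n = 2). The Cxcr3 and Cx3cr1 values overlapped there, with Cxcr3 above Cx3cr1 in replicate 1 (228.4 and 147.3 CPM per kb) and below it in replicate 2 (167.3 and 242.1). In the empty vector group the order was Cxcr6 at 312.3 ± 13.2, Cx3cr1 at 288.5 ± 75.1, Ccr2 at 107.7 ± 1.44 and Cxcr3 at 89.4 ± 1.296 CPM per kb. There Cxcr6 and Cx3cr1 overlapped, and Ccr2 and Cxcr3 did not. The scarce receptors, Ccr9, Ccr7, Cxcr4 and Cxcr5, had group means of at most 3.24 CPM per kb, and the rank of Ccr9 among them in the empty vector group moved when the longest transcript was used as the length.

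The summed level of the 8 receptors overlapped between the groups, at 2861 and 2911 CPM in Hic1 vector libraries and 2588 and 3004 CPM in the empty vector libraries. Its make-up differed. Cxcr6 made up 51.6% and 48.6% of the receptor RNA per kb in the Hic1 vector libraries, against 42.2% and 35.98% in the empty vector libraries. Cxcr3 made up 22.4% and 17.2% in the Hic1 vector libraries, against 11.8% and 10.5% in the empty vector libraries. For Cx3cr1 the share was 14.5% and 24.8% in the Hic1 vector libraries, against 30.9% and 40.6% in the empty vector libraries. For Ccr2, whose own level overlapped, the share was 11.1% and 9.08% in the Hic1 vector libraries, against 14.3% and 12.7% in the empty vector libraries. The groups did not overlap in any of these 4 shares, which are tied to each other since all 8 sum to the whole. Of all genes tested, 51.4% had levels without overlap between the groups, counting both directions. Ratios of counts within a library need no scaling between libraries. There were 0.596 and 0.265 Cxcr3 reads per Cx3cr1 read in the Hic1 vector libraries, against 0.147 and 0.0995 in the empty vector libraries. There were 1.53 and 0.839 Cxcr6 reads per Cx3cr1 read in the Hic1 vector libraries, against 0.586 and 0.38 in the empty vector libraries. Set against Ccr2, Cxcr3 had 0.518 and 0.484 reads per read in the Hic1 vector libraries and 0.213 and 0.212 in the empty vector libraries. Cxcr6 had 1.33 and 1.53 reads per Ccr2 read in the Hic1 vector libraries, against 0.845 and 0.812 in the empty vector libraries. In each of these 4 ratios both Hic1 vector libraries were above both empty vector libraries. The ratios were not tested, and their numerators are Cxcr3 and Cxcr6, the receptors already called.

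**Figure D2:**
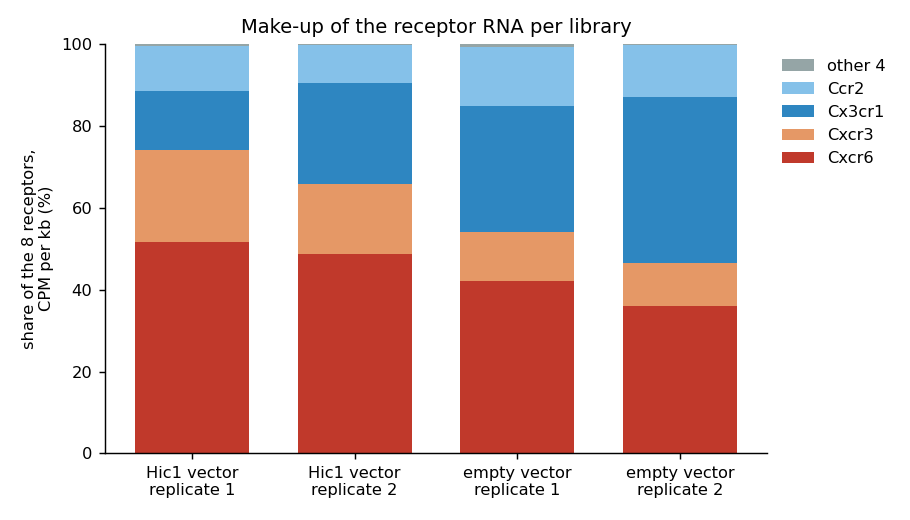
Share of each receptor in the summed CPM per kb of the 8, in percent, stacked for each library with the Hic1 vector libraries on the left. Cxcr6 and Cxcr3 take larger shares in the Hic1 vector libraries (51.6% and 48.6% for Cxcr6), and Cx3cr1 and Ccr2 smaller ones. The 4 scarce receptors form the thin grey band at the top.

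Cx3cr1, the fractalkine receptor of effector-differentiated CD8 T cells, was at 663.8 and 1091 CPM in Hic1 vector libraries, against 1060 and 1539 CPM in the empty vector libraries. The replicate numbered 2 was the higher in both groups, so Hic1 vector replicate 2 lay above empty vector replicate 1 and the groups overlapped. The log2 fold change was -0.57 ± 0.278 (SE, n = 2 per group; adjusted p = 0.342 by edgeR's quasi-likelihood test) and did not pass. Between the libraries numbered 1 the log2 difference was -0.68, and between those numbered 2 it was -0.50. Without Hic1 vector replicate 2 the log2 value was -0.96 and the adjusted p was 0.0313. It was -0.25 without Hic1 vector replicate 1 (adjusted p = 0.587) and -0.29 without empty vector replicate 2 (adjusted p = 0.657). Ccr2, the receptor for monocyte chemoattractant chemokines, was at 762.9 and 598.7 CPM in Hic1 vector libraries, against 734.8 and 721.0 CPM in the empty vector libraries. Its log2 fold change of -0.10 ± 0.138 was smaller than its error, and the value was 0.05 within number 1 and -0.27 within number 2. Ccr2 and Cx3cr1 are also expressed by monocytes. The 8 monocyte, macrophage and neutrophil markers, of which 3 were tested and none passed, summed to 17.6 and 26.0 CPM in Hic1 vector libraries, against 42.5 and 44.7 CPM in the empty vector libraries. Most of that sum was Itgam, which T cells can express, with a log2 value of -0.88 ± 0.259 and no overlap. Ly6c1 had 12 and 15 counts in Hic1 vector libraries, against 23 and 31 in empty vector libraries (log2 -1.78 ± 0.508, adjusted p = 0.0919), and Adgre1 had 0 in both, against 6 and 10. Lyz2 had 0 and 13 counts in Hic1 vector libraries and 0 in both empty vector libraries. Csf1r, also tested, had 1 and 37 counts in Hic1 vector libraries, against 7 and 21 in empty vector libraries. Its groups overlapped (log2 -0.56 ± 0.992). S100a8, S100a9 and Cd14 had at most 5 counts in any library, and their groups overlapped too. Their part in the values of Ccr2 and Cx3cr1 was not tested.

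Ccr9, the gut homing receptor, had the largest fitted log2 fold change of the 7, at 2.31 ± 0.517 (SE, n = 2 per group), and missed the threshold (adjusted p = 0.0544 by edgeR's quasi-likelihood test). It had 155 and 120 counts in the Hic1 vector libraries, against 22 and 5 in the empty vector libraries. In CPM these were 21.8 and 13.7 with the Hic1 vector, against 5.34 and 1.25 with the empty vector. Both Hic1 vector libraries were above both empty vector libraries, and the empty vector libraries differed more between themselves in proportion. The log2 difference was 1.97 within replicate number 1 and 3.15 within number 2. Without empty vector replicate 1 the log2 value was 3.54 (adjusted p = 0.0592), and without Hic1 vector replicate 2 it was 2.59 (adjusted p = 0.0275). The other 2 omissions lowered it, to 1.66 with empty vector replicate 2 left out (adjusted p = 0.0884) and to 1.94 with Hic1 vector replicate 1 left out (adjusted p = 0.0866). DESeq2 called it (2.41, adjusted p = 0.00453). In mouse spleen, Ccr9 is also expressed by plasmacytoid dendritic cells. Siglech, a defining marker of those cells, had 0 counts in both Hic1 vector libraries, against 1 and 0 in the empty vector libraries. The 6 dendritic cell markers summed to 21.3 and 21.5 CPM in Hic1 vector libraries and 16.0 and 21.2 CPM in empty vector libraries, mostly from Xcr1 and Zbtb46, and Clec9a was at 0 throughout.

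**Figure D3:**
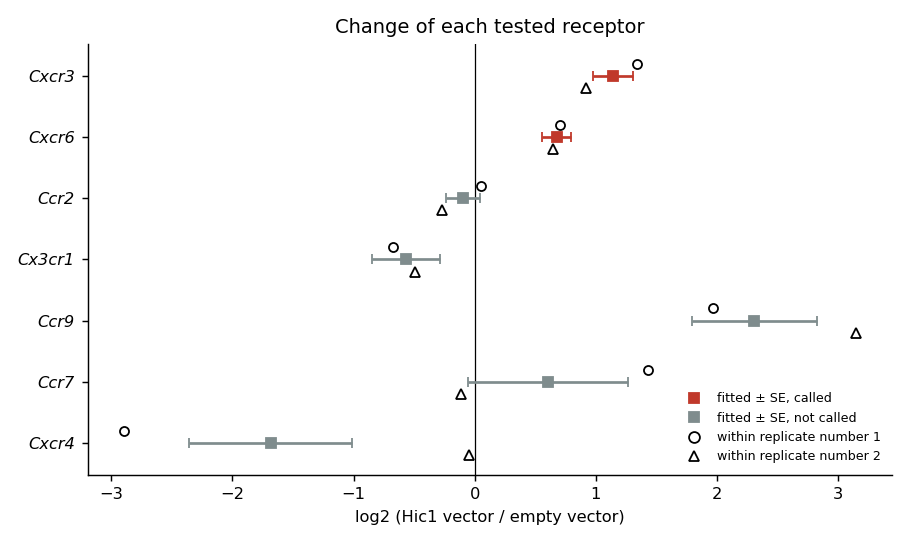
Log2 ratio of the Hic1 vector over the empty vector for the 7 receptors tested; squares are fitted values with the SE, red where called, and open symbols are the differences within replicate numbers 1 (circle) and 2 (triangle). Both open symbols lie on the same side of 0 for Cxcr3, Cxcr6, Cx3cr1, Ccr9 and Cxcr4, at -2.89 and -0.05 for Cxcr4, and on opposite sides for Ccr2 and Ccr7.

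Of the 8 receptor genes 5 lie on chromosome 9, and Ccr9, Cxcr6 and Ccr2 lie in a single cluster there with other receptor genes. The stretch of 478.8 kb from Slc6a20a to Ccr2 (positions 123634770 to 124113557, mm10) was chosen after the values were seen. It held 18 genes of the table, of which 8 were tested, 5 had the Hic1 vector libraries wholly above the empty vector libraries and none had them wholly below. Over all genes tested these shares were 26.5% and 24.9%, and the choice of the stretch with its values known leaves nothing to be read from its count. These 5 were Slc6a20a, Ccr9, Lztfl1, Cxcr6 and Xcr1, and only Cxcr6 was called. Slc6a20a, an imino acid transporter gene beside Ccr9, had 80 and 61 counts in the Hic1 vector libraries, against 9 and 1 in the empty vector libraries. Its log2 fold change was 2.59 ± 0.636 (SE, n = 2 per group; adjusted p = 0.0661 by the same test). It is transcribed from the opposite strand, and 22 of its exon bases overlap those of Ccr9 (0.214% of the Ccr9 exon bases). Larger exon overlaps of Ccr9 are annotated with AC165425.1 on the opposite strand (1932 bases, 18.8%) and Gm17200 on the same strand (269 bases, 2.62%). The counts of Ccr9 and of these overlapping genes may thus not be fully separate. AC165425.1, named Gm17021 among the counted genes, had 0 counts in every library. Gm17200 had 14 and 5 counts in the Hic1 vector libraries, against 4 and 0 in the empty vector libraries. Lztfl1, a regulator of ciliary protein trafficking annotated inside the long Ccr9 transcript span, was at 29.8 and 21.5 CPM in Hic1 vector libraries, against 9.71 and 16.5 CPM in the empty vector libraries (log2 0.95 ± 0.327, adjusted p = 0.145).

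The other 4 genes of the stretch gave log2 values of -0.10 to 0.56. Fyco1, an adaptor for autophagosome transport that spans Cxcr6, had a log2 value of -0.06 ± 0.202 (adjusted p = 0.906). Xcr1, the receptor for the lymphotactin Xcl1, was at 20.4 and 15.8 CPM in Hic1 vector libraries, against 11.9 and 12.5 CPM in empty vector libraries, with a log2 value of 0.56 ± 0.305 (adjusted p = 0.349). Ccr3, the eotaxin receptor, had a log2 value of -0.05 ± 0.615, and Ccr2 the -0.10 given above. Around Cxcr3 on the X chromosome, 3 other genes were tested within 200 kb, none was called, and their median log2 value was -0.21.

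**Figure D4:**
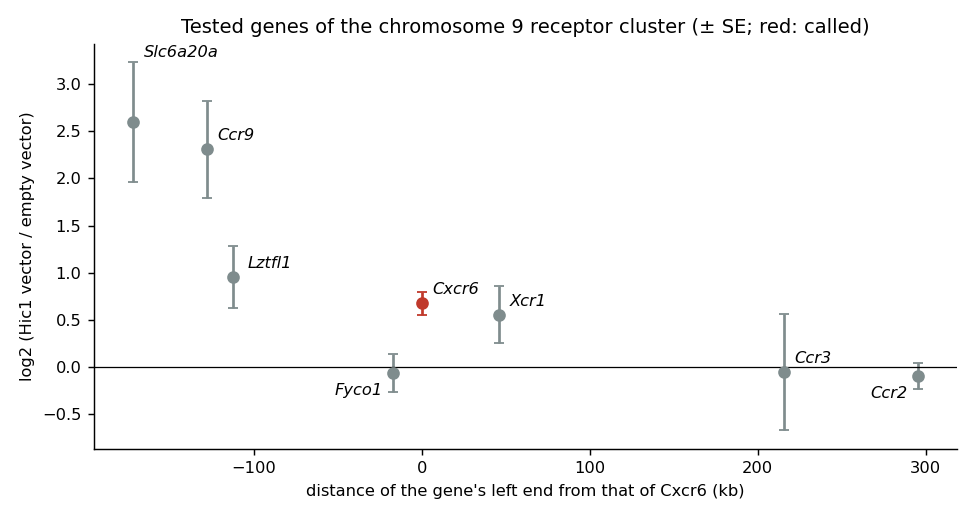
Fitted log2 ratio of the Hic1 vector over the empty vector, with SE, for the 8 tested genes of the chromosome 9 receptor cluster from Slc6a20a to Ccr2 against the distance of each gene's left end from that of Cxcr6 in kb; red marks the called gene. Slc6a20a, Ccr9 and Lztfl1 at the left have values of 2.59, 2.31 and 0.95, and Ccr3 and Ccr2 at the right lie at -0.05 and -0.10.

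The lymphoid organ receptors were scarce, and no difference was called in them. Ccr7, the receptor for T cell zone chemokines, had 18 and 14 counts in the Hic1 vector libraries, against 3 and 7 in the empty vector libraries. Its groups overlapped in CPM, at 2.53 and 1.595 with the Hic1 vector and 0.728 and 1.75 with the empty vector, and its log2 fold change of 0.61 ± 0.66 was within its error. Cxcr4, the receptor for Cxcl12, had 7 and 19 counts in the Hic1 vector libraries, against 39 and 9 in the empty vector libraries. The log2 fold change was -1.68 ± 0.672 (SE, n = 2 per group; adjusted p = 0.206 by edgeR's quasi-likelihood test). It rested on empty vector replicate 1, at 9.47 CPM against 2.25 CPM in replicate 2, and without that library the log2 value was -0.43. Cxcr5, the follicular receptor, had 1 and 0 counts in the Hic1 vector libraries, against 0 and 3 in the empty vector libraries. A count of 3 equals 0.342 to 0.75 CPM in these libraries, so a difference in Cxcr5 at levels this low was not detectable at this depth.

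B cells also express Ccr7, Cxcr4 and Cxcr5. The 5 B cell markers summed to 278.3 and 213.0 CPM in Hic1 vector libraries, against 79.6 and 88.4 CPM in empty vector libraries. Most of that was Ighm, which rose by 1.57 on the log2 scale (adjusted p = 0.00706), and Cd79b had 270 and 117 counts in Hic1 vector libraries, against 67 and 13 in empty vector libraries (log2 1.36 ± 0.776, adjusted p = 0.417). Cd79a had 17 and 16 counts in Hic1 vector libraries, against 6 and 0 in empty vector libraries (log2 1.19 ± 0.809, adjusted p = 0.462), and Ms4a1 had 0 and 1, against 0 and 2. Of the 3 B cell markers tested, Ighm alone passed. Their part in the receptor values was not tested. Of 3 CD4 T cell, 3 NK cell and 4 erythroid markers, 1, 2 and 0 were tested and none was called. Cd4 had 5 and 2 counts in the Hic1 vector libraries, against 2 and 1 in the empty vector libraries, and Ncr1 had 1 and 1 counts against 0 and 2. The CD4 marker tested, Cd40lg, had 231 and 101 counts in Hic1 vector libraries, against 70 and 39 in empty vector libraries (log2 0.70 ± 0.488). The NK marker Klrb1c had 416 and 621 counts, against 121 and 175. Its log2 value was 0.82 ± 0.23 and that of Eomes was -1.04 ± 0.36, and the groups overlapped in neither. In sorted bulk cells, a smaller share of cells with a receptor and less of its RNA per cell cannot be told apart.

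Of 17 further chemokine and related receptor genes in the table, only 5 passed the filter, with a median log2 value of -0.27. Among these 5, Cmklr1 alone was called, and it fell. Over all genes tested, 1.82% were called and 1.1% fell. Cmklr1, the receptor for the chemoattractant chemerin, was at 9.15 and 9.12 CPM in Hic1 vector libraries, against 25.7 and 21.5 CPM in the empty vector libraries. Its log2 fold change was -1.34 ± 0.296 (SE, n = 2 per group; adjusted p = 0.0474 by edgeR's quasi-likelihood test), close to the threshold. Each omission of a single library ended the call, with log2 values of -1.48 to -1.21 and adjusted p of 0.0512 to 0.293. It was also not called with DESeq2 size factors (0.0504), limma voom (0.0587) or thinned counts (0.0784). Ccrl2, an atypical receptor, had a log2 value of -0.32 ± 0.391, and Ccr8, a receptor of skin-homing T cells, one of -0.27 ± 0.689. The 12 receptors that were not tested had at most 11 counts in any library, and Cxcr1 and Ackr2 had none.

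Ligands of the 8 receptors were scarce in these T cells, since 12 of 13 did not pass the filter. Ccl25, the ligand of Ccr9, was the one tested, at 7.74 and 3.99 CPM in Hic1 vector libraries, against 11.4 and 5.25 CPM in empty vector libraries (log2 -0.49 ± 0.484). Cxcl10, a ligand of Cxcr3, had 16 and 11 counts in Hic1 vector libraries and 0 in both empty vector libraries, and was singled out after its values were seen. Over each group together it was at least 4.6-fold higher with the Hic1 vector, taking 3 counts over the empty vector group as the floor. Of 7 chemokines made by T cells 5 were tested and none was called, with a median log2 value of 0.01. Ccl5, the abundant chemokine of effector CD8 T cells, was at 11472 and 15173 CPM in Hic1 vector libraries, against 9738 and 10682 CPM in empty vector libraries (log2 0.38 ± 0.134, adjusted p = 0.159). Ccl9 had a log2 value of 0.84 ± 0.315, Ccl4 one of -0.28 ± 0.371 and Ccl6 one of 0.01 ± 0.461.

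Of 30 genes of signal transduction downstream of chemokine receptors 29 were tested, and 28 did not pass. None rose and 1, Rap1a, fell, which is near the 1.1% of all genes tested that fell, and the median log2 value was -0.06. Rap1a, a small GTPase that activates integrins after chemokine stimulation, was at 44.5 and 44.4 CPM in Hic1 vector libraries, against 103.2 and 76.0 CPM in the empty vector libraries. Its log2 fold change was -1.01 ± 0.195 (adjusted p = 0.0307), and it was not called without empty vector replicate 1 (-0.77, adjusted p = 0.268), without Hic1 vector replicate 2 (-0.998, adjusted p = 0.0566) or after GC correction (-0.81, adjusted p = 0.0634). Its paralog Rap1b had -0.63 ± 0.162 (adjusted p = 0.0709), the GTPase Rhoa -0.38 ± 0.129, and Pik3r5, a regulatory subunit of the G protein-activated phosphoinositide 3-kinase, 0.38 ± 0.132. After GC correction Rhoa was at -0.23 and Pik3r5 at 0.18. The 11 tested genes of receptor desensitization had a median of 0.54 and 10 of them were above 0, but none passed. Over all 11676 genes tested, 5946 were above 0. Grk6 and Grk2, kinases that phosphorylate active receptors, had log2 values of 0.78 ± 0.19 (adjusted p = 0.0615) and 0.55 ± 0.141 (adjusted p = 0.0686). Both passed by DESeq2 (adjusted p = 0.0453 and 0.0496), and after GC correction Grk6 was at 0.56 and Grk2 at 0.34. Rgs3 and Rgs14, which shorten G protein signals, had 0.56 ± 0.156 and 0.55 ± 0.178, and 0.40 and 0.46 after GC correction.

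Of 12 transcription factors known to act on receptor genes in T cells, Tcf7 rose, Tbx21 and Runx3 fell and 9 did not pass, where 1.82% of all genes tested were called, with a median log2 value of -0.41. Tcf7, a factor of naive and stem-like cells, was at 97.8 and 84.0 CPM in Hic1 vector libraries, against 25.5 and 20.0 CPM in the empty vector libraries. It rose by a log2 fold change of 1.98 ± 0.21 (SE, n = 2 per group; adjusted p = 0.00423 by edgeR's quasi-likelihood test) and was called whichever library was left out. Tbx21 encodes T-bet, which is known to activate Cxcr3 in mouse T cells. It was at 370.0 and 281.0 CPM in Hic1 vector libraries, against 510.0 and 658.6 CPM in the empty vector libraries, a log2 fold change of -0.84 ± 0.17 (adjusted p = 0.043). Between the groups, Tbx21 was thus lower where Cxcr3 was higher, and a part of Tbx21 in the level of Cxcr3 was not tested. Runx3 had -0.71 ± 0.157 (adjusted p = 0.0474) and Zeb2, a repressor that promotes effector differentiation, -0.65 ± 0.165 (adjusted p = 0.0694). The call of Tbx21 was lost without Hic1 vector replicate 2, empty vector replicate 1 or empty vector replicate 2 (adjusted p = 0.102, 0.0693 and 0.0959), and that of Runx3 without empty vector replicate 1, Hic1 vector replicate 1 or Hic1 vector replicate 2 (0.358, 0.0932 and 0.0835). Runx3 was also not called with DESeq2 size factors (0.0505), limma voom (0.0623) or thinned counts (0.0571).

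**Figure D5:**
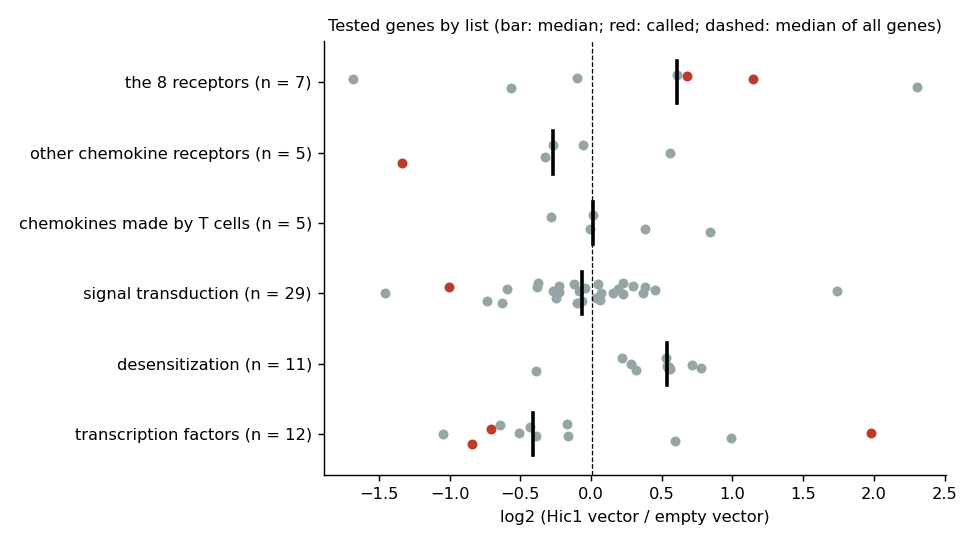
Fitted log2 ratio of the Hic1 vector over the empty vector for every tested gene of 6 lists, red where called; black bars are list medians and the dashed line is the median of all 11676 genes. The desensitization genes have a median of 0.54 with no call, and the transcription factors a median of -0.41 with 3 calls.

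The genes whose levels followed each receptor most closely over the 4 libraries were found by the root mean square distance of centred log2 CPM, among 8736 genes of at least 5 CPM. For Cxcr3 these were Lrrc47, a leucine-rich repeat gene, and Sytl1, a synaptotagmin-like gene (distances of 0.063 and 0.069). For Cxcr6 they were Snap47 and Ighmbp2, a helicase (0.033 and 0.037). The nearest genes to Cx3cr1 were Golim4 and Cdkn1a, which encodes the cell cycle inhibitor p21 (0.042 and 0.088), and Scd2, a fatty acid desaturase gene, was nearest to Ccr2 (0.017). The gene nearest to Ccr9 was its chromosomal neighbour Slc6a20a (0.21), followed by Actn2 (0.29). Ccr7 was nearest to Isg20 and Nek8 (0.039 and 0.074) and Cxcr4 to Ptprv and Borcs6 (0.15 and 0.24). With 4 libraries such likeness is a description of these samples.

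On chromosome 9, the span from Ltf to Lztfl1 (positions 111019271 to 123717697) contains Cx3cr1 and the left end of the receptor cluster. It held 69 tested genes, of which none rose and 4 fell, where 0.719% and 1.1% did over all genes tested, with a median log2 value of -0.10. These 4 were Lrrfip2 (-1.75 ± 0.327), Clasp2 (-1.22 ± 0.257), the palmitoyltransferase gene Zdhhc3 (-0.85 ± 0.181) and the TGF-beta receptor gene Tgfbr2 (-0.73 ± 0.157). Their adjusted p-values were 0.0273, 0.0474, 0.0443 and 0.0444, and none of the 4 was called without empty vector replicate 1, where the adjusted p was 0.263, 0.324, 0.268 and 0.206. Clasp2, Zdhhc3 and Tgfbr2 also lost their calls without Hic1 vector replicate 2 (adjusted p = 0.113, 0.175 and 0.19), as did Zdhhc3 and Tgfbr2 without empty vector replicate 2 (0.0503 and 0.0729). Those 3 were not called after GC correction or by limma voom either, with adjusted p of 0.0541 to 0.0723. Within 200 kb of Cx3cr1, 7 other genes were tested, none was called and their median log2 value was 0.10.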

How the data were processed

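Smart-seq2 libraries of polyadenylated RNA were prepared from 5 µl of lysate of 1000 cells, themselves resorted out of 5000 sorted cells, per the labels' protocols, with 12 PCR cycles following fragmentation. The deposited table holds raw read counts per gene as whole numbers. The tools named in the submitters' processing notes are STAR 2.5.2b, featureCounts 1.5.3, Trimmomatic 0.38 and DESeq2 1.3.2, and the build is mm10, without their roles. The strand setting and annotation release were not given in the sources used here. A deposited table of scaled counts was not used.

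With edgeR 4.0.16, low genes were removed by filterByExpr (at least 10 counts and a total of 15), libraries were TMM-scaled and the robust quasi-likelihood F test was run on group as the sole term (prior count 2), and p-values were adjusted by Benjamini-Hochberg over the 11676 genes kept. The SE is the log2 fold change divided by the square root of F. CPM uses TMM-scaled library sizes. Lengths and positions come from GENCODE M21 on mm10, which held 98.1% of the identifiers with the same version. The test was tested on simulated data. Genes varied between replicates with a common biological coefficient of 0.195. PCR reads carry no molecular identifiers here and may repeat a molecule, so floors cover counting error only.

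The receptors, gene lists and motifs were chosen with earlier results of these data known. Named are Hic1, the 8 receptors, every called gene of a list and up to 4 of lowest p in each (all of those tested where fewer), and the 2 nearest genes per receptor. The 12 transcription factors, like the other lists, carry no test as a list. Some genes of the lists and of the nearest patterns are not reported here, and list and marker values were computed without them. The span from Ltf to Lztfl1 was meant to hold the receptor cluster, but in this annotation it holds only the left end of it, up to the first part of Ccr9, so the cluster was taken from Slc6a20a to Ccr2 after its values were seen, and windows of 200 kb were added then. Alternatives were DESeq2 1.42.0, limma 3.58.1 voom, other scalings, no filter, thinned counts, a GC correction (loess span 0.3), a replicate block and single omissions. R 4.3.3 and matplotlib 3.10.9 were used.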

Additional observations from a re-analysis of the deposited data

How the results depend on the processing

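The main test called 213 genes and 2 receptors. The genes called were 321 with library totals alone, 819 with no filter on low counts, 418 by DESeq2, 121 by limma voom, 140 with thinned counts and 102 after GC correction. With the replicate number as a block they were 794, and 564 with GC correction and the block. Over single omissions they ranged from 8 (without empty vector replicate 1) to 318. The receptors called were 4 with no filter, 4 with the replicate block and 4 with GC correction and the block, namely Cxcr3, Cxcr6, Ccr9 and Cx3cr1, and 0 to 4 over single omissions. Under the block the adjusted p was 0.00854 for Ccr9 (log2 2.41) and 0.00797 for Cx3cr1 (-0.59), and 0.0237, 0.024 and 0.0445 for Grk6, Grk2 and Rgs3. With GC correction and the block, Grk6, Grk2 and Rgs3 were not called (adjusted p = 0.0844, 0.134 and 0.143). The labels do not say that a number marks a shared animal or day, while sex-linked transcripts differed between the numbers. Deviations of same-numbered libraries from their group means had a Pearson correlation of 0.239 across genes, which are not independent replicates.

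Cxcr3 was called in 12 of 13 alternatives, at log2 values of 0.91 to 1.36, and Cxcr6 in 11 of 13, at 0.60 to 0.83. Ccr9 was called in 6 of 13 (1.66 to 3.54), Cx3cr1 in 4 of 13 (-0.96 to -0.25), and Cxcr4, Ccr7 and Ccr2 in none of those in which they were tested. The sign of Ccr2 turned after GC correction (0.088), GC correction with the block (0.078) and without Hic1 vector replicate 2 (0.073). Fyco1 turned with no filter (0.0025) and without empty vector replicate 2 (0.25). Without empty vector replicate 1, Ccl25 was at 0.15, Ccl4 at 0.43 and Ccr8 at 0.24, and Ccr8 was at 0.43 without Hic1 vector replicate 2. Ccl6 turned with library totals alone (-0.046), DESeq2 (-0.0014), limma voom (-0.063), the block (-0.075), thinned counts (-0.16), and without Hic1 vector replicate 2 (-0.80) or empty vector replicate 1 (-0.28). Over single omissions the log2 values ran from -0.28 to 0.073 for Ccr2, -1.54 to 0.43 for Ccr8, -0.995 to 0.15 for Ccl25, -0.77 to 0.43 for Ccl4, -0.80 to 0.52 for Ccl6 and -0.33 to 0.25 for Fyco1. None of these turned values was called, and the cause was not tested. Hic1 missed the threshold by limma voom (4.68, adjusted p = 0.0784). The GC correction moved the median of all genes by 0.02 on the log2 scale and library totals alone by -0.07.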
